A study of Mus musculus with 32 samples.

Results

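The mitochondrially encoded genes are the genes carried by the circular chromosome inside the mitochondrion, and their RNA was measured in BV-2 cells, a mouse line that is widely used as a model of microglia. They were taken as every gene of the deposited counts table whose name starts with mt-, which gave 37 of 45706 genes. Of these, 13 code for proteins, 2 for ribosomal RNAs and 22 for transfer RNAs, and each class is described apart. No measured value entered this choice.

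The mitochondrial chromosome is transcribed along nearly its whole length from both strands into long precursor RNAs. Transfer RNAs lie between most of the other genes, and their excision frees the ribosomal RNAs and the messenger RNAs. The messenger RNAs code for core subunits of respiratory complexes I, III and IV and of the ATP synthase (complex V), whereas the remaining subunits and all proteins that copy, transcribe and process mitochondrial DNA and RNA are made from nuclear genes. Microglia, the resident phagocytes of the brain, alter their energy metabolism when they meet bacterial lipopolysaccharide (LPS).

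The study compared RNA from BV-2 cells that received a microRNA mimic or a scramble control, with LPS or with vehicle, to ask which genes each microRNA moves in resting and in stimulated cells. All 8 groups were transfected, and each held 4 libraries. Vehicle cells carried the scramble (VEH_scramble) or a mimic of miR-7a-5p (VEH_miR-7a), miR-29a-3p (VEH_miR-29a) or miR-146a-5p (VEH_miR-146a). Their LPS counterparts, given 10 ng/ml for 24 h, are named LPS_scramble and, with the respective mimic, LPS_miR-7a, LPS_miR-29a and LPS_miR-146a. Some labels also carry an age of mice, which was not used for this cell line. The labels give glioblastoma as the cell type, and they place LPS before transfection while the methods place it after, so the order is not settled here. BV-2 is 1 immortalised line, and replicates were independent experiments on it according to the methods, so that p-values measure the spread between cultures of this line. The mimics carried mature microRNAs that differ in their seed, the stretch that pairs with target messenger RNAs. The sequences are those of RefSeq (GRCm38.p6), shown so that the 3 treatments can be told apart, with the seed (bases 2 to 8) in capitals:
miR-7a-5p: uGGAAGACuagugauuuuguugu
miR-29a-3p: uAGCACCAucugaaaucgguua
miR-146a-5p: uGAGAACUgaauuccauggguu

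After lost decimal marks had been restored, the libraries held 1204768 to 20655393 counts, and 3 counts equalled 0.145 to 2.49 CPM, a count scaled to a common library total. Ribosomal RNA was depleted before the libraries were made, so the mitochondrial ribosomal RNAs are what depletion left, and its efficiency in each library was not measured. In VEH_miR-7a replicates 2, 3 and 4, small structural RNAs took 38.6%, 35.0% and 37.0% of the counts, against 2.88% to 18.7% in the other libraries, and the calls that rest on VEH_miR-7a are given with and without them. The 12 microglia and macrophage markers summed to 3591 to 7359 normalised CPM, although Cx3cr1 was at 0 in 5 libraries and never above 6.71, whereas 8 astrocyte and glioma markers summed to at most 3.31 and 5 neuronal markers to at most 3.08. These are bulk samples, in which fewer cells of a kind and less RNA per cell cannot be told apart. Levels are given as normalised CPM, which are CPM of restored counts over library sizes adjusted jointly in all 32 libraries.

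The protein-coding members took 0.861% to 4.76% of a library's counts, with a mean of 2.36% ± 0.959 (SD, n = 32). The ribosomal members took 0.00444% to 0.0678%, and the transfer RNA members 0.000377% to 0.00369%. Messenger RNA therefore made up nearly all mitochondrial counts in these libraries. By group, the protein-coding share in vehicle was 1.98% ± 0.714 (SD, n = 4) with the scramble, 1.80% ± 0.473 with the miR-7a mimic, 2.49% ± 0.709 with that of miR-29a and 3.41% ± 1.08 with that of miR-146a. Under LPS the corresponding values were 2.12% ± 0.776, 1.42% ± 0.499, 3.24% ± 1.04 and 2.40% ± 0.881. The libraries overlapped in each of the 10 comparisons described below. Relative to nuclear protein-coding counts, where the structural RNAs drop out, VEH_miR-7a had 2.84% on average and VEH_scramble 2.42%, so that the order of these groups turned with the scale. On that scale VEH_miR-7a libraries had 2.60% to 3.01% and LPS_miR-7a libraries 0.958% to 2.28%, with no overlap. VEH_miR-7a replicate 1, the one library of its group without that excess, had 2.49% of all counts and 2.81% on that scale.

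**Figure D1:**
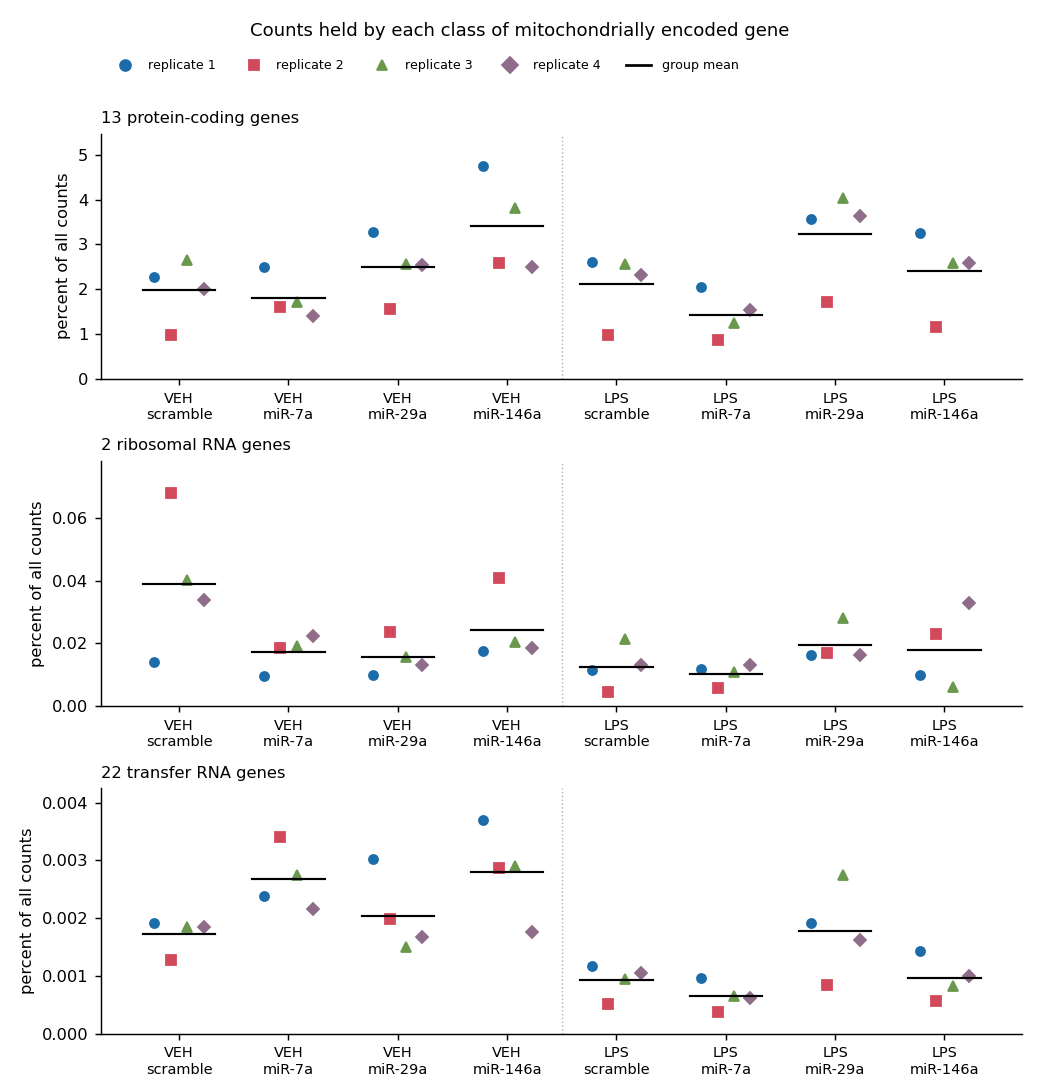
Percent of all restored counts in the 13 protein-coding, 2 ribosomal RNA and 22 transfer RNA members (vertical axes) in each of the 32 libraries, by group, with a symbol for each replicate number and a line at the group mean. The protein-coding share runs from 0.861% to 4.76%, and replicate 2 holds the lowest value in 6 of 8 groups.

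Per kilobase of gene, the subunits of cytochrome c oxidase (complex IV) and ATP synthase stood well above those of complex I. mt-Co1, the catalytic subunit of cytochrome c oxidase, led with a mean of 5879 normalised CPM per kb, followed by mt-Co3 with 4389, mt-Co2 with 3856, mt-Atp6 with 3785 and mt-Atp8 with 3124. mt-Cytb, the one complex III subunit of this chromosome, had 1075. The complex I subunits followed in the order mt-Nd1 (942), mt-Nd5 (901), mt-Nd4l (766), mt-Nd4 (717), mt-Nd2 (657), mt-Nd6 (599) and mt-Nd3 (41.1). mt-Nd6 is the only protein-coding member on the minus strand, and its level per kb lay next to that of mt-Nd2. The ribosomal members mt-Rnr2 (16S) and mt-Rnr1 (12S) had 102 and 53.8 normalised CPM per kb, below every protein-coding member except mt-Nd3. Neighbours in this order were not tested against each other. mt-Atp8 and mt-Atp6, and mt-Nd4l and mt-Nd4, overlap on the plus strand, and mt-Atp6 and mt-Co3 meet at the same base. Reads of shared bases could have been given to either gene, so overlapping members are not independent counts. mt-Nd5 and mt-Nd6 overlap on opposite strands, and whether the counting used the strand was not checked.

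**Figure D2:**
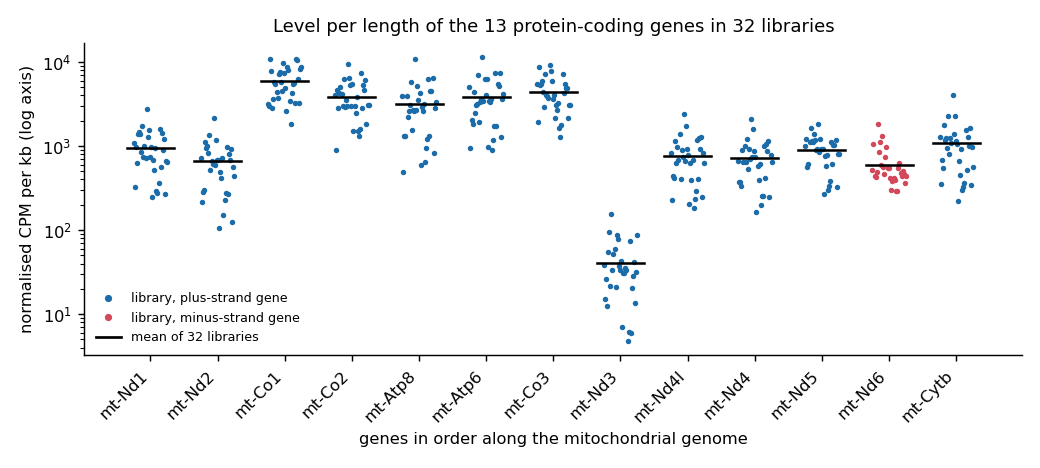
Mean normalised CPM per kb over 32 libraries (log axis) of the 13 protein-coding members in genome order, with the minus-strand gene mt-Nd6 in red. The oxidase and ATP synthase genes lie between 3124 and 5879 and the complex I genes other than mt-Nd3 between 599 and 942.

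The mt-Atp8 and mt-Atp6 reading frames share bases, and this stretch is shown because reads over it hold bases of both genes. It spans chrM:7927-7969 on the plus strand of GRCm38, and the capitals mark the start codon of mt-Atp6:
mt-Atp8 and mt-Atp6: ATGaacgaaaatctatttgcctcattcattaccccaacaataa

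The low level of mt-Nd3 went with a near-identical copy in the nuclear genome. The pseudogene Gm28438 (chr1:24612775-24613119, minus strand) differed from mt-Nd3 by 1 of 345 aligned bases, and it held 91% of the counts of the pair (62.2% to 98.6% by library). A read away from that base is the same in both genes, so the split of counts between them and the level of mt-Nd3 are uncertain. Gm28437, which matched mt-Co3 in all 783 aligned bases, held 5.98% of its pair. The reason for this difference in split was not tested. The first 31 bases of mt-Nd3 and Gm28438 are shown because they hold the sole difference, T3C, in capitals, with positions counted from 1 at the 5′ end, mt-Nd3 from chrM:9459-9489 and Gm28438 from chr1:24613089-24613119 on the minus strand:
mt-Nd3: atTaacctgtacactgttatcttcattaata
Gm28438: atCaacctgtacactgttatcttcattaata

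In all, 9 nuclear pseudogenes shared long stretches with protein-coding members. The copy Gm29216 held 16.8% of its pair with mt-Co1, Gm28437 5.98% of its pair with mt-Co3, and the other 6 held at most 1.88% of theirs. Together the copies took 5.56% to 15.6% of the counts of protein-coding members and copies, with a mean of 9.42%. Adding them to their members left the number of protein-coding members called in each comparison within 1.5 times its value in the fits without a replicate term.

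Among the 22 transfer RNAs, mt-Tl1, one of the transfer RNAs for leucine, carried 29.4% to 77.8% of the counts, with a mean of 62.4%. Its gene lies directly after mt-Rnr2 and directly before mt-Nd1, with no base between them. Whether its reads came from the excised transfer RNA or from a precursor was not tested. The next most abundant, mt-Ts1, a transfer RNA for serine, reached 3.91 normalised CPM at most. The other 20 were lower in mean level, mt-Tf was at 0 in 25 libraries and mt-Ts2 in 30, and a library held 26 to 438 transfer RNA counts in all, so that only 1 to 3 of the 22 were high enough to test in a comparison of 2 groups. Both leading transfer RNAs are shown with their anticodon in capitals, mt-Tl1 from chrM:2676-2750 on the plus strand and mt-Ts1 from chrM:6870-6938 on the minus strand:
mt-Tl1: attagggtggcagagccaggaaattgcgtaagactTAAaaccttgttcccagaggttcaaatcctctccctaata
mt-Ts1: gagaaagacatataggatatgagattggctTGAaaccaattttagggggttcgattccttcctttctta

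Libraries with the same replicate number resembled each other in the balance among the members, whatever mimic or treatment they had received. mt-Co1 took 23.9% ± 4.90 (SD, n = 8) of the protein-coding counts in replicates numbered 1, 34.7% ± 8.14 in those numbered 2, 46.5% ± 7.62 in those numbered 3 and 49.1% ± 6.17 in those numbered 4. Replicate 1 had the lowest mt-Co1 share in 8 of 8 groups. mt-Nd6 took 2.84% of the protein-coding counts on average in replicates numbered 2 and 0.948%, 0.977% and 1.13% in those numbered 1, 3 and 4, and replicate 2 had its highest share in 8 of 8 groups. The ratio of mt-Rnr2 to mt-Rnr1 was lowest in replicate 2 in 8 of 8 groups, or in 7 if the less certain mt-Rnr1 value of VEH_scramble replicate 2, described below, had lost 1 decimal. mt-Atp8, mt-Atp6 and mt-Nd4l had their lowest normalised CPM in replicate 2 in 8 of 8 groups. What the experiments with one number have in common is not given in the labels, and its part in these values was not tested.

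**Figure D3:**
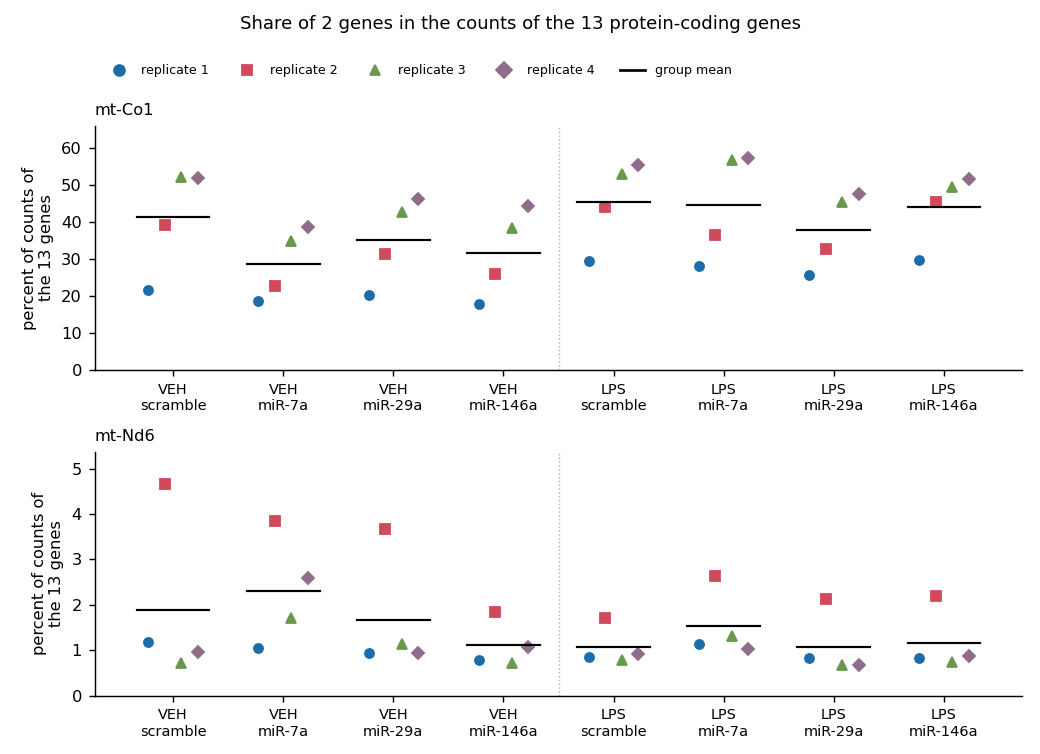
Percent of the counts of the 13 protein-coding members taken by mt-Co1 and by mt-Nd6 (vertical axes) in each library, by replicate number and group. mt-Co1 averages 23.9% in the libraries numbered 1 and 49.1% in those numbered 4, and mt-Nd6 averages 2.84% in those numbered 2.

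Each comparison below was therefore tested without and with the replicate number as a block in limma, with p-values adjusted over all genes tested and a member called at an adjusted p under 0.05. Same-numbered libraries deviated together in every pair in 7 of 10 comparisons, and in these the blocked result is given for the members on which the comparison turns. The 3 mimics were each compared with the same 4 scramble libraries within a treatment, and their results share those controls.

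The first question was what LPS did to cells with the scramble control. In these, mt-Rnr2 and mt-Tl1 were called lower with LPS, while 0 of the 13 protein-coding members were called. mt-Rnr2 is what ribosomal RNA depletion left, so a difference in depletion cannot be told apart from a difference in its level. Over all genes, 17.2% were called in this comparison, and 29.9% with the block. The median log2 fold change of the protein-coding members was 0.04, with 8 above 0 and 5 below, against 0.0087 over all genes tested. By limma, 1 protein-coding member had an unadjusted p under 0.05, where 4085 of 12333 genes did, and edgeR and DESeq2 called 0 protein-coding members. Without VEH_scramble replicate 2, limma called 1. Small structural RNAs took 6.71% to 11.96% of the counts in VEH_scramble and 2.95% to 5.79% in LPS_scramble, with no overlap. With library sizes over nuclear protein-coding genes, mt-Rnr2 and mt-Tl1 were still called lower, and the part of the structural RNA in these values was not tested further.

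mt-Rnr2, the RNA of the large mitochondrial ribosomal subunit, stood at 108.0, 465.4, 441.6 and 344.8 normalised CPM in VEH_scramble replicates 1 to 4 and at 81.17, 29.72, 179.3 and 110.1 in LPS_scramble. It was lower with LPS in 4 of 4 pairs of the same number, although the groups overlapped through VEH_scramble replicate 1. The group levels were 340 ± 163.2 and 100.1 ± 62.4 (SD, n = 4), and the log2 fold change was -1.83 (SE 0.54, limma adjusted p = 0.0392) and -1.92 with the block (SE 0.45, limma adjusted p = 0.0123). Without the block, mt-Rnr2 was not called when any one of VEH_scramble replicates 2, 3 and 4 or LPS_scramble replicates 1, 2 and 4 was left out (limma adjusted p = 0.0694 to 0.104).

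mt-Rnr1, the RNA of the small subunit, stood at 33.95, 343.0, 44.34 and 44.62 normalised CPM in VEH_scramble and at 30.17, 11.72, 31 and 16.11 in LPS_scramble. The groups did not overlap, and VEH_scramble replicate 2 lay far above the other libraries. Its value is the one ribosomal value restored with a probability under 0.99 (0.943), and with 1 lost decimal it would be 34.3. The log2 fold change was -1.76 (SE 0.62, limma adjusted p = 0.0702), and with the block it was -2.02 (SE 0.63, limma adjusted p = 0.0388). Without VEH_scramble replicate 2 it was -1.08 (limma adjusted p = 0.0436), and mt-Rnr1 was also called without VEH_scramble replicate 1 (limma adjusted p = 0.0424). With 1 lost decimal in replicate 2 it was -1.01 (limma adjusted p = 0.0344), and -0.95 with the block as well (limma adjusted p = 0.0125).

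mt-Tl1 stood at 14.13, 4.498, 12.63 and 13.61 normalised CPM in VEH_scramble and at 4.31, 3.203, 5.857 and 5.089 in LPS_scramble. VEH_scramble replicate 2 was the one vehicle library within the range of the LPS libraries. The log2 fold change was -1.26 (SE 0.34, limma adjusted p = 0.0267), and with the block it was -1.22 (SE 0.21, limma adjusted p = 0.00356). Without the block the call was lost when VEH_scramble replicate 3 or 4 or LPS_scramble replicate 1, 2 or 4 was left out (limma adjusted p = 0.0525 to 0.0901).

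Of the protein-coding members, mt-Nd6 had 268.2, 549.3, 231.0 and 221.0 normalised CPM in VEH_scramble and 215.5, 155.2, 198.0 and 203.3 in LPS_scramble. These groups did not overlap, but the log2 fold change of -0.61 (SE 0.26) was not called (limma adjusted p = 0.128). mt-Co1 had 4920, 4618, 16790 and 11940 normalised CPM in VEH_scramble and 7500, 3991, 13330 and 12380 in LPS_scramble, a log2 fold change of 0.04 (SE 0.46, limma adjusted p = 0.956). Its range within a group was far wider than the gap between the groups. mt-Co3 had 4325, 1521, 6750 and 4142 against 3151, 1702, 2436 and 2127 with LPS, a log2 fold change of -0.63 (SE 0.38, limma adjusted p = 0.274). With the block, mt-Atp8, a small ATP synthase subunit, was the sole protein-coding member called, with a log2 fold change of 0.63 (SE 0.18, limma adjusted p = 0.029). With nuclear copies added as well, 3 were called, 1 higher and 2 lower. With the block alone, mt-Nd6, mt-Co1 and mt-Co3 had log2 fold changes of -0.60, 0.06 and -0.63 (limma adjusted p = 0.0975, 0.817 and 0.0718).

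**Figure D4:**
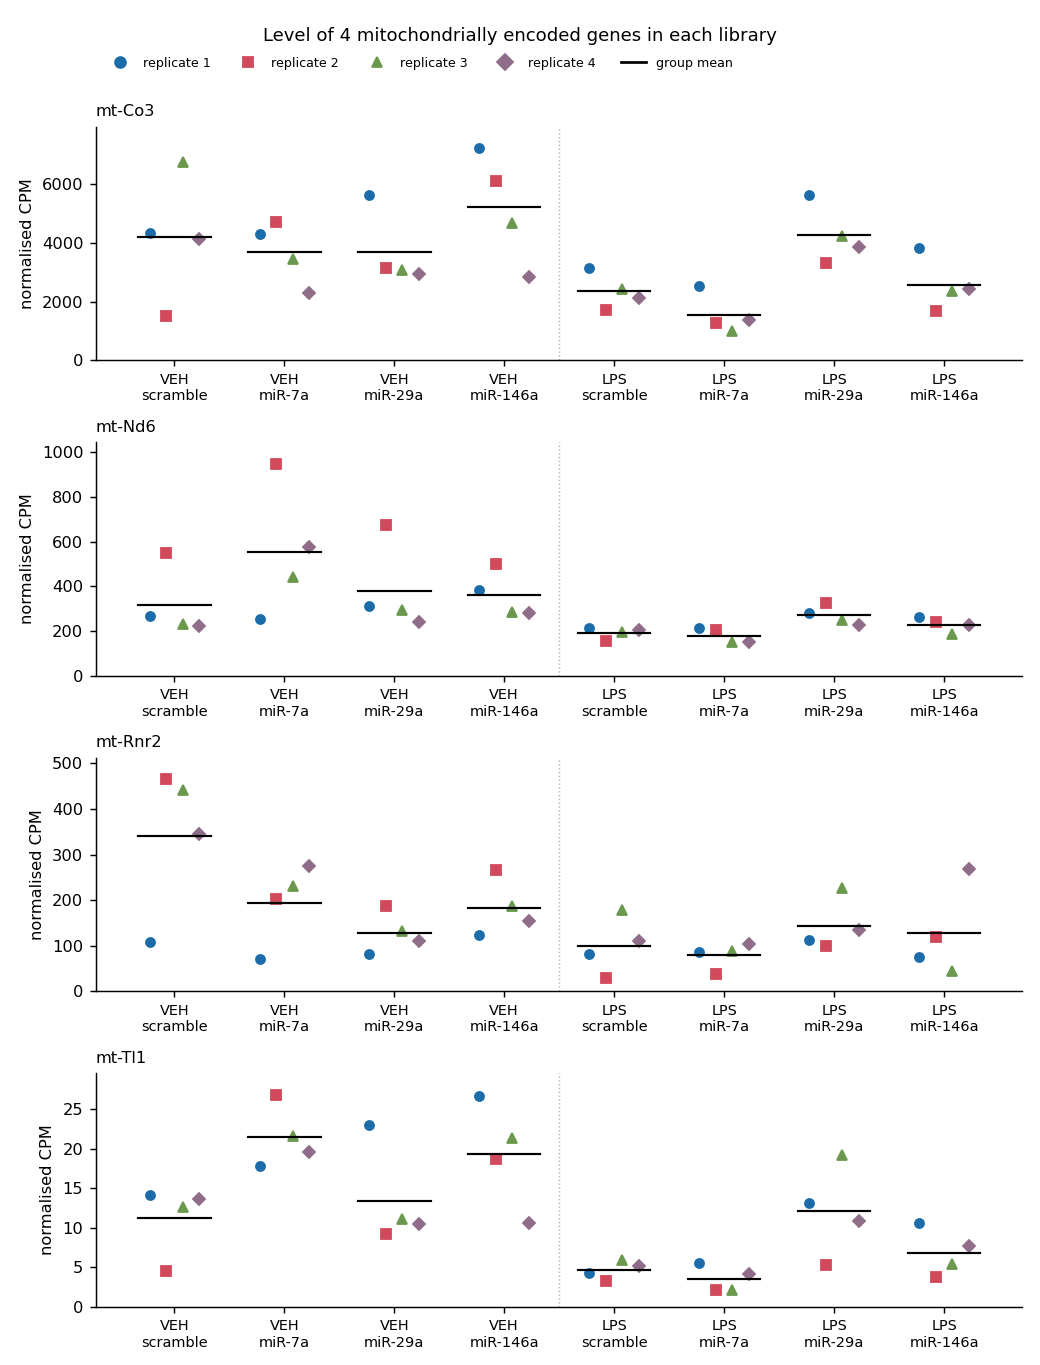
Normalised CPM (vertical axes) of mt-Co3, mt-Nd6, mt-Rnr2 and mt-Tl1 in each library, by group, with a symbol for each replicate number and a line at the group mean. In LPS_miR-7a all 4 libraries lie below all 4 VEH_miR-7a libraries for mt-Nd6 and mt-Tl1.

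Nuclear genes whose products join or serve the mitochondrial ones were counted from 4 lists. Of the 74 nuclear respiratory chain subunits, LPS lowered 11 and raised 0 in the scramble cells, with a median log2 fold change of -0.48, where 8.07% of all genes were called lower. Among them Atp5e, an ATP synthase subunit, went from 229.3 ± 71.2 to 104.7 ± 21.3 normalised CPM (SD, n = 4), and its log2 fold change was -1.08 (limma adjusted p = 0.00983), and the complex I subunits Ndufb2 and Ndufb11 fell by 0.96 and 0.95 on the log2 scale. With the block, 40 of the 74 were called lower, where 15.4% of all genes were. Whether these subunits differed from the mitochondrial messenger RNAs of the same complexes was not tested. Pnpt1, an RNA-degrading enzyme of mitochondria, rose by 0.82 on the log2 scale (limma adjusted p = 0.00818), and Hsd17b10, a subunit of mitochondrial RNase P, fell by 0.61 (limma adjusted p = 0.0415), out of 28 genes of RNA processing and decay. Gars, which charges glycine transfer RNAs, rose by 0.67 on the log2 scale (limma adjusted p = 0.0145), and no gene of DNA maintenance and transcription was called.

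The same treatment was next compared between the groups with a miR-7a mimic. Here LPS lowered 9 of the 12 protein-coding members tested, and it lowered mt-Tl1, the one transfer RNA tested. Of all genes, 6.63% were called, and 4.07% were called lower, and with the block 11 of the 12 were called lower, where 9.63% of all genes were called. All 12 log2 fold changes were below 0, from -1.78 to -0.32, with a median of -1.45. mt-Nd3 could not be tested, since its restored value was uncertain in 1 library.

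The 3 protein-coding members with the smallest adjusted p were 2 complex I subunits and the complex III subunit. mt-Nd5 stood at 2060, 3009, 2080 and 2045 normalised CPM in VEH_miR-7a and at 1424, 551.3, 610.4 and 706.3 in LPS_miR-7a, a log2 fold change of -1.60 (SE 0.26, limma adjusted p = 0.00355). mt-Cytb stood at 2033, 1352, 1441 and 1088 in VEH_miR-7a and at 1062, 338.0, 367.6 and 417.5 in LPS_miR-7a, a log2 fold change of -1.62 (SE 0.32, limma adjusted p = 0.00971). mt-Nd2 stood at 1154, 984.8, 1031 and 844.3 in VEH_miR-7a and at 738.9, 158.6, 238.9 and 283.3 in LPS_miR-7a, a log2 fold change of -1.78 (SE 0.35, limma adjusted p = 0.0108). None of these 3 overlapped between the groups, which adds no support, since they were picked by their adjusted p. The share of all genes without overlap was not counted. LPS_miR-7a replicate 1 was the highest LPS library in each of the 3.

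mt-Nd6, from the other strand, had 253.5, 948.8, 443.2 and 575.9 normalised CPM in VEH_miR-7a and 213.4, 204.1, 151.9 and 149.5 in LPS_miR-7a. It did not overlap either and fell by 1.47 on the log2 scale (SE 0.32, limma adjusted p = 0.017). mt-Co3 had 4310, 4706, 3454 and 2299 against 2525, 1274, 1015 and 1380 with LPS, and it fell by 1.33 (limma adjusted p = 0.0128). mt-Nd1, mt-Nd4, mt-Nd4l and mt-Co2 were also called, with log2 fold changes of -1.67, -1.43, -1.52 and -1.15.

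mt-Co1 stood apart from the called members. It had 4428, 5620, 9020 and 8534 normalised CPM in VEH_miR-7a and 5285, 2823, 6535 and 8364 in LPS_miR-7a, a log2-scale change of -0.32 (limma adjusted p = 0.634), which turned to 0.27 (limma adjusted p = 0.868) without VEH_miR-7a replicates 2, 3 and 4. The ATP synthase members mt-Atp8 and mt-Atp6 had log2 fold changes of -1.28 (limma adjusted p = 0.0724) and -1.05 (limma adjusted p = 0.101).

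mt-Tl1 had 17.8, 26.82, 21.58 and 19.54 normalised CPM in VEH_miR-7a and 5.583, 2.091, 2.127 and 4.087 in LPS_miR-7a. The lowest vehicle library lay above the highest LPS library by a wide margin, and the log2 fold change was -2.73 (SE 0.33, limma adjusted p = 0.000629). mt-Rnr1 and mt-Rnr2 had log2 fold changes of -1.35 (SE 0.38, limma adjusted p = 0.0554) and -1.12 (SE 0.42, limma adjusted p = 0.151). Both were called without VEH_miR-7a replicate 1 (limma adjusted p = 0.000178 and 0.00444), whereas neither was without VEH_miR-7a replicates 2, 3 and 4.

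Of the 4 VEH_miR-7a libraries, 3 were rich in structural RNA and had totals of 1847952, 2446698 and 1204768 counts. When those 3 were left out together, 0 protein-coding members were called, in a fit that assumes the lone VEH_miR-7a library to vary like the others. The log2 fold changes of mt-Nd5, mt-Cytb, mt-Nd2 and mt-Nd6 were then -1.42, -2.06, -1.94 and -0.51, with limma adjusted p of 0.288, 0.21, 0.301 and 0.515, and that of mt-Tl1 was -2.51 (limma adjusted p = 0.0629). Those of mt-Rnr1 and mt-Rnr2 were -0.37 and 0.05 (limma adjusted p = 0.741 and 0.982). With each library left out in turn, mt-Nd1, mt-Nd2, mt-Nd5, mt-Cytb, mt-Co3 and mt-Tl1 were called in 8 of 8 fits, and 6 to 11 protein-coding members were called in all. mt-Nd4 was not called without VEH_miR-7a replicate 3 (limma adjusted p = 0.0525), nor mt-Nd6 without LPS_miR-7a replicate 3 (limma adjusted p = 0.0522). mt-Nd4l lost its call in 5 fits (VEH_miR-7a replicates 1 and 3, LPS_miR-7a replicates 2, 3 and 4, limma adjusted p = 0.05 to 0.0762) and mt-Co2 in 6 (those and VEH_miR-7a replicate 2, limma adjusted p = 0.0575 to 0.103). mt-Atp8 and mt-Atp6 were called without LPS_miR-7a replicate 1 (limma adjusted p = 0.00317 and 0.00705). The part of the structural RNA in these values was not tested.

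Beside these members, 15 of the 74 nuclear respiratory chain subunits fell and 0 rose, where 4.07% of all genes were called lower, with a median log2 fold change of -0.50. Uqcr11, of complex III, fell by 1.36 on the log2 scale (limma adjusted p = 0.00212), and Atp5e and Atp5j2, of ATP synthase, fell by 1.95 and 1.07. Lars2, the enzyme that charges mitochondrial leucine transfer RNAs such as mt-Tl1, went from 843.7 ± 482.9 to 238.7 ± 87.1 normalised CPM (SD, n = 4), and its log2 fold change was -1.69 (SE 0.42, limma adjusted p = 0.0346). It was the one synthetase called. Tbrg4, a protein that binds mitochondrial RNA, fell by 0.65 (limma adjusted p = 0.0373). Without VEH_miR-7a replicates 2, 3 and 4, 0 genes of these lists were called. The subunits' median was then -0.50, and the log2 fold changes of Uqcr11, Atp5e, Lars2 and Tbrg4 were -1.30, -0.84, -0.64 and -0.50 (limma adjusted p = 0.126, 0.319, 0.652 and 0.457).

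With the miR-29a mimic, LPS gave no call among the members tested without the block, although 26.4% of all genes were called in this comparison and 41.8% with the block. Of 12 protein-coding members tested, 0 were called by limma without the block, and edgeR and DESeq2 called 0. Of the 12, 0 had an unadjusted p under 0.05 by limma, where 4804 of 12286 genes did. The median log2 fold change of the 12 was 0.12, with 8 above 0 and 4 below. mt-Rnr2 had 81.27, 188.1, 131.9 and 109.8 normalised CPM in VEH_miR-29a and 111.5, 100.3, 226.9 and 133.5 in LPS_miR-29a, and mt-Tl1 had 22.96, 9.225, 11.05 and 10.44 against 13.17, 5.286, 19.22 and 10.82. Both overlapped through most of their range. With the block, mt-Co2, a core oxidase subunit, was called, with a log2 fold change of 0.36 (SE 0.13, limma adjusted p = 0.0483). Among the 74 nuclear respiratory chain subunits, 2 rose and 5 fell without the block, where 26.4% of all genes were called. Atp5d was among those that fell, by 0.89 on the log2 scale. Pnpt1 rose by 0.90 on the log2 scale and Slirp, which binds mitochondrial messenger RNA, by 0.76.

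With the miR-146a mimic, LPS lowered mt-Tl1, and 10 of the 13 protein-coding members were called lower with the block but 0 without it. The shares of all genes called were 4.23% without the block and 9.09% with it, of which 4.25% were lower. All 13 log2 fold changes were below 0, with a median of -0.87. Of the 13, 7 had an unadjusted p under 0.05 by limma, where 2212 of 12154 genes did. edgeR called 0 of the 13 and DESeq2 2, where it called 6.54% of all genes. mt-Tl1 had 26.61, 18.64, 21.28 and 10.6 normalised CPM in VEH_miR-146a and 10.56, 3.701, 5.342 and 7.715 in LPS_miR-146a, so that the groups only just failed to overlap. Its log2 fold change was -1.48 (SE 0.36, limma adjusted p = 0.0364), and -1.70 with the block (limma adjusted p = 0.00515). The unblocked call was lost without any one of VEH_miR-146a replicates 1, 2 and 3 or LPS_miR-146a replicates 2, 3 and 4 (limma adjusted p = 0.0564 to 0.12).

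Among the protein-coding members, mt-Cytb had a log2 fold change of -1.43 without the block (limma adjusted p = 0.0994) and -1.40 with it (SE 0.15, limma adjusted p = 0.000424). mt-Nd6 had 385.6, 498.9, 284.1 and 280.9 normalised CPM in VEH_miR-146a and 264.3, 239.5, 187.8 and 225.9 in LPS_miR-146a. Its groups did not overlap, and its log2 fold change was -0.63 without the block (SE 0.18, limma adjusted p = 0.0806) and -0.64 with it (limma adjusted p = 0.00967). mt-Co3 was called without the block when VEH_miR-146a replicate 4 or LPS_miR-146a replicate 1 was left out (limma adjusted p = 0.0152 to 0.0306), and mt-Cytb when LPS_miR-146a replicate 1 was (limma adjusted p = 0.0329). mt-Co1 again had the value nearest to 0 at -0.08, and the 2 ribosomal members were not called in either fit.

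The mimics were then compared with the scramble control in vehicle, where few genes were called at all. The share of all genes called was 0.152% for miR-7a, 0.00853% for miR-29a and 2.21% for miR-146a. For miR-7a, 0 members were called by limma. An unadjusted p under 0.05 was met by 7 of the 12 protein-coding members tested, and by 1414 of 11185 genes. Of the protein-coding members edgeR called 0 and DESeq2 2, with 2.38% of all genes called by DESeq2. With the block 5 were called higher, where 2.19% of all genes were called and 1.56% were higher. Without the block the 12 had a median log2 fold change of 0.84, with 10 above 0. mt-Nd2 had 756, 226.4, 295.7 and 314.1 normalised CPM in VEH_scramble against 1154, 984.8, 1031 and 844.3 in VEH_miR-7a, with no overlap, a log2 fold change of 1.51 (SE 0.30, limma adjusted p = 0.0723). It was called without VEH_scramble replicate 1 or VEH_miR-7a replicate 1 (limma adjusted p = 0.00337 to 0.0325), and mt-Nd4 was called without VEH_scramble replicate 1 (limma adjusted p = 0.0281). mt-Tl1 did not overlap either, with 11.22 ± 4.524 in VEH_scramble and 21.44 ± 3.908 in VEH_miR-7a (SD, n = 4), a log2 fold change of 0.89 (SE 0.34, limma adjusted p = 0.318). Without the 3 libraries rich in structural RNA, the log2 fold changes of mt-Nd2 and mt-Tl1 were 1.72 and 0.71 (limma adjusted p = 0.984 for both).

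For miR-29a in vehicle, 12 of 13 protein-coding members lay above 0 and the 2 ribosomal members below it, and with nuclear copies added 10 of 13 lay above 0. Without the block 0 were called by limma. An unadjusted p under 0.05 was met by 4 protein-coding members and 1 ribosomal member, and by 1210 of 11720 genes. Of the members edgeR called 0 and DESeq2 called 1, a ribosomal member, where it called 0.853% of all genes. With the block, 6 of 13 protein-coding members were called higher and the 2 ribosomal members lower, where 0.759% of all genes were called and 0.350% were higher. The 6 were mt-Nd2 (log2 fold change 1.12), mt-Nd4l (0.86), mt-Cytb (1.00), mt-Atp8 (1.13), mt-Nd4 (0.92) and mt-Atp6 (0.83), with limma adjusted p of 0.0117 to 0.0479. Among them mt-Nd4l and mt-Nd4, and mt-Atp8 and mt-Atp6, overlap in the genome, so the 6 are not independent of each other. mt-Rnr2 had a log2 fold change of -1.29 without the block (SE 0.40, limma adjusted p = 0.308) and -1.27 with it (SE 0.20, limma adjusted p = 0.037). mt-Rnr1 had 19.35, 90.27, 26.17 and 21.19 normalised CPM in VEH_miR-29a, below the same-numbered VEH_scramble library in 4 of 4 pairs. Its log2 fold change was -1.16 without the block (SE 0.66, limma adjusted p = 0.551) and -1.22 with it (SE 0.20, limma adjusted p = 0.0397). With 1 lost decimal in VEH_scramble replicate 2, it lay below in 3 of 4 pairs, and it was not called in either fit (-0.39 and -0.32, limma adjusted p = 0.743 and 0.62).

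For miR-146a in vehicle, mt-Nd4, a core complex I subunit, rose. It had 905.5, 512.3, 517.9 and 462.5 normalised CPM in VEH_scramble and 2907, 1015, 2187 and 1186 in VEH_miR-146a, with no overlap and a log2 fold change of 1.56 (SE 0.32, limma adjusted p = 0.0343). It was the sole member called without the block, while all 13 protein-coding members lay above 0, between 0.27 and 1.89. Of the 13, 9 had an unadjusted p under 0.05 by limma, where 3004 of 11835 genes did. edgeR called 1 protein-coding member where it called 3.01% of all genes, DESeq2 5 where it called 10.6%, and limma without the filter on low counts 6 where it called 1.72%. With the block limma called 8 higher, where 12.8% of all genes were called and 5.91% were higher. Those next in size of adjusted p were mt-Cytb with a log2-scale change of 1.66 (limma adjusted p = 0.0559) and mt-Nd2 with 1.61 (limma adjusted p = 0.0619). Without VEH_scramble replicate 1, 7 protein-coding members were called, where 10.1% of all genes were, and without any one of the other 7 libraries 0 were, with limma adjusted p of 0.0514 to 0.125 for mt-Nd4. mt-Rnr2 lay on the other side of 0, and without VEH_scramble replicate 1 it was called with a log2-scale change of -1.21 (limma adjusted p = 0.0146). Among the nuclear respiratory chain subunits 5 fell and 0 rose, where 1.27% of all genes were called lower, led by Uqcrq of complex III at -0.93 (limma adjusted p = 0.0343). Small structural RNAs took 3.82% to 7.51% of the counts in VEH_miR-146a and 6.71% to 11.96% in VEH_scramble. Their part in the values of this comparison was not tested.

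Under LPS the protein-coding members lay below the scramble control with miR-7a and above it with miR-29a and miR-146a. For miR-7a, 0 of 13 were called without the block, where 2.61% of all genes were, and edgeR and DESeq2 called 0. Of the 13, 1 had an unadjusted p under 0.05 by limma, where 2266 of 13087 genes did. With the block 6 were called lower, where 16.5% of all genes were called and 8.67% were lower. All 13 log2 fold changes were below 0, with a median of -0.50. mt-Co1 was among the 6 here, with a log2 fold change of -0.64 with the block (SE 0.10, limma adjusted p = 0.00085). Its normalised CPM was 5285, 2823, 6535 and 8364 in LPS_miR-7a, below the same-numbered LPS_scramble library in 4 of 4 pairs. mt-Co3 had a log2 fold change of -0.66 without the block (SE 0.27, limma adjusted p = 0.236) and -0.65 with it (SE 0.13, limma adjusted p = 0.00349), and mt-Atp6, mt-Co2, mt-Atp8 and mt-Nd4l were the others. These 6 are subunits of the oxidase and ATP synthase apart from mt-Nd4l, of complex I.

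For miR-29a under LPS, mt-Co3 rose without the block, and all 12 protein-coding members tested were called higher with it. mt-Nd3 had an uncertain value in 1 library and was left out. The shares of all genes called were 4.83% without the block and 20.0% with it, of which 9.83% were higher. mt-Co3 had 3151, 1702, 2436 and 2127 normalised CPM in LPS_scramble and 5620, 3311, 4249 and 3869 in LPS_miR-29a, so that the lowest mimic library lay just above the highest control. Its log2 fold change was 0.86 (SE 0.22, limma adjusted p = 0.0449) and 0.88 with the block (SE 0.089, limma adjusted p = 2.53e-05). Without the block it was not called once LPS_scramble replicate 2, 3 or 4 or LPS_miR-29a replicate 1, 3 or 4 was left out (limma adjusted p = 0.0664 to 0.127). Among protein-coding members edgeR called 0 and DESeq2 2, where it called 7.69% of all genes, and limma called 0 with library sizes over nuclear protein-coding genes.

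The log2 fold changes of the 12 ran from 0.35 to 1.02 without the block, with a median of 0.82. mt-Nd1 had 0.94 without the block (limma adjusted p = 0.212) and 0.96 with it (SE 0.10, limma adjusted p = 3.3e-05), and mt-Co1 had 0.32 with the block (limma adjusted p = 0.0246). mt-Nd6 had 282.5, 325.9, 249.9 and 226.0 normalised CPM in LPS_miR-29a, above each LPS_scramble library, a log2 fold change of 0.51 (SE 0.15, limma adjusted p = 0.0702; with the block, 0.0111). Thus members of both strands and of each of the 4 complexes had calls in the same direction with the block.

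Of the other 2 classes, both ribosomal members and mt-Tl1, 1 of the 2 transfer RNAs tested, were called higher with the block, while the other, mt-Ts1, lay at -0.97 on the log2 scale (limma adjusted p = 0.0837). mt-Rnr1 and mt-Rnr2 had log2 fold changes of 0.76 (limma adjusted p = 0.0468) and 0.73 (limma adjusted p = 0.0127) with it, and of 0.86 (limma adjusted p = 0.175) and 0.72 (limma adjusted p = 0.4) without it. With nuclear copies added as well, 1 of the 2 was called. mt-Tl1 had 13.17, 5.286, 19.22 and 10.82 normalised CPM in LPS_miR-29a, above the same-numbered LPS_scramble library in 4 of 4 pairs. Its log2 fold change was 1.25 without the block (SE 0.41, limma adjusted p = 0.105) and 1.34 with it (SE 0.20, limma adjusted p = 0.000428), and it was called without LPS_miR-29a replicate 2 (limma adjusted p = 0.0103). Of the 74 nuclear respiratory chain subunits 0 were called without the block. With it 4 were called higher and 6 lower, where 20.0% of all genes were called and 9.83% were higher. Fastkd1, a mitochondrial RNA-binding protein, rose by 1.04 on the log2 scale (limma adjusted p = 0.0101), and Trnt1, which adds the CCA end to transfer RNAs, by 0.58 (limma adjusted p = 0.0404).

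For miR-146a under LPS, 0 members were called by limma without the block, where 2.25% of all genes were, and edgeR and DESeq2 called 0. An unadjusted p under 0.05 by limma was met by 0 members and by 2194 of 12649 genes. With the block 6 of 13 protein-coding members were called higher, where 15.3% of all genes were called and 7.23% were higher. All 13 log2 fold changes were above 0, with a median of 0.26, although without LPS_scramble replicate 2 those of mt-Atp8, mt-Atp6 and mt-Nd5 were -0.28, -0.31 and -0.095, and without LPS_miR-146a replicate 1 those of mt-Atp8 and mt-Atp6 were -0.063 and -0.13. mt-Nd4 had 0.57 without the block (limma adjusted p = 0.597) and 0.60 with it (limma adjusted p = 0.00115), and mt-Cytb had 0.54 with it (limma adjusted p = 0.00179). mt-Rnr2 had 75.46, 118.6, 44.32 and 268.7 normalised CPM in LPS_miR-146a, a range that held 3 of the 4 LPS_scramble libraries. mt-Ts1, at 0.7177, 0.2177, 1.385 and 0.5511 in LPS_miR-146a and 0.7183, 0.2726, 1.428 and 2.101 in LPS_scramble, rested on 2 to 14 and 2 to 45 counts.

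Whether a mimic changed the LPS response was tested as the difference between its effect under LPS and under vehicle, and 0 members were called for any of the 3 mimics without the block. The shares of all genes called were 0.0733% for miR-7a, 0.0161% for miR-29a and 0% for miR-146a, for which limma left 1390 of 12446 genes with an unadjusted p under 0.05, edgeR called 0 and DESeq2 14. For miR-7a, 6 protein-coding members and 1 transfer RNA had an unadjusted p under 0.05, where 679 of 12272 genes did. Among these members was mt-Nd2, with a difference in log2 fold change of -1.78 (SE 0.71, limma adjusted p = 0.769). With the block 3 protein-coding members were called lower for miR-7a, where 0.587% of all genes were called and 0.391% were lower, and without VEH_miR-7a replicates 2, 3 and 4 and without the block 0 were. For miR-29a the 2 ribosomal members had an unadjusted p under 0.05, where 811 of 12450 genes did. mt-Rnr2 had a difference of 1.99 (SE 0.69, limma adjusted p = 0.623). That of mt-Rnr1 was 1.97 (limma adjusted p = 0.713), or 1.24 (limma adjusted p = 0.737) with 1 lost decimal in VEH_scramble replicate 2. For miR-146a no member had an unadjusted p under 0.05. The 9 protein-coding members called with LPS in the miR-7a cells, and none in the scramble cells, are thus not shown to differ between those cells by the fit without the block.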

How the data were processed

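RNA of BV-2 cells was extracted with TRIzol, depleted of ribosomal RNA, made into CORALL total RNA libraries and sequenced as single-end reads. Per the labels and methods the authors ran the nf-core rnaseq pipeline on GRCm38, and their tools included limma and edgeR. The deposited values are expected counts per gene (estimated, need not be whole) that had lost their decimal marks, so 276 of the 416 values of the protein-coding members appear with 2 or 3 decimals run into the whole number. Each value was given the number of lost decimals with the highest posterior under a model of the gene's level over libraries, and genes with a posterior under 0.9 in a compared library were left out. Of all values above 0, 28.6% were given lost decimals and 2.62% were uncertain. Of restored values, 5.86% to 8.52% by library had fewer than 3 decimals where 10% would be met by chance, so a few remain misplaced.

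Comparisons used limma 3.58.1 (voom) on the 2 groups, after edgeR 4.0.16's filterByExpr and TMM, in R 4.3.3, with Benjamini-Hochberg adjustment over all genes tested and a threshold of 0.05. Restoration and figures used Python 3.11.15. The restoration, and the limma and edgeR fits of LPS_scramble against VEH_scramble without the block, were tested on simulated data that held no replicate effect. The block, the differences between effects, DESeq2 and the nuclear copies were not tested in this way. Levels over a common scale used one TMM over 12438 genes. Replicate numbers come from the titles; the lowest correlation of same-numbered deviations from group means was 0.101 to 0.278 in the 7 comparisons where every pair exceeded 0.1, and the highest of all was 0.506. Annotation was GENCODE on GRCm38. Nuclear copies were pseudogenes sharing at least 40% of their 31-base words with a member. Alternatives were edgeR's quasi-likelihood test, DESeq2 1.42.0, other size factors, no filter, the block, other posteriors, the values as deposited, another reading of 1 mt-Rnr1 value and leaving libraries out. The floor of 3 counts covers counting error only. Members named with values were mt-Nd6, the ribosomal members, the 2 most abundant protein-coding and transfer RNA members and up to 3 called members a comparison, beside others singled out after their values were seen. Members and gene lists were chosen with earlier results of these data known. No p-value was adjusted over the members alone.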

Additional observations from a re-analysis of the deposited data

Results flagged for a closer look

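In each group of 4 libraries the highest or lowest value was compared with the nearest other by Dixon's ratio, for 7 members and the shares of the 3 classes. Of 80 groups tested, 10 held a library that stood apart from the other 3, where chance alone marks about 1 in 20. Replicate 2 was such a library for mt-Nd6, the minus-strand complex I gene, at 549 normalised CPM in VEH_scramble against 221 to 268 in the others, and at 675 in VEH_miR-29a against 238 to 312. It was so for mt-Rnr1, at 343 in VEH_scramble against 34 to 44.6 (restored with a probability of 0.943, and 34.3 with 1 lost decimal), and at 90.3 in VEH_miR-29a against 19.3 to 26.2. In VEH_scramble replicate 2, mt-Tl1 was low instead, at 4.5 against 12.6 to 14.1, and the transfer RNA share was 0.00128% against 0.00185% to 0.00191%. The ribosomal share was 0.0408% in VEH_miR-146a replicate 2 against 0.0176% to 0.0204%, and 0.0282% in LPS_miR-29a replicate 3 against 0.0163% to 0.0169%. VEH_miR-29a replicate 1 was high for mt-Co3, at 5614 against 2948 to 3137, and for mt-Tl1, at 23 against 9.22 to 11. The cause was not tested.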

How the results depend on the processing

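Counts here are of protein-coding members called. With RLE size factors, uncertain values kept, a posterior minimum of 0.99, a fold threshold of 0.3 as well, or nuclear copies added (chosen after seeing the data), all 13 counts stayed within 1.5 times. With the replicate number as a block the counts were 1 for LPS_scramble against VEH_scramble, 5, 6 and 8 in vehicle for the miR-7a, miR-29a and miR-146a mimics, 6, 12 and 6 for them under LPS, 1 and 10 for LPS with miR-29a and miR-146a, and 3 for the miR-7a difference between effects; with nuclear copies added as well they were 3, 5, 6, 7, 6, 11, 6, 1, 11 and 3. In VEH_miR-7a against VEH_scramble, VEH_miR-146a against VEH_scramble and LPS_miR-7a against VEH_miR-7a the lowest pair correlations were -0.0793, 0.0842 and 0.0676, so the rule that every pair exceed 0.1 was not met there, although 3 of 4 pairs in each did. With the block mt-Rnr2 was also called in these 3 and mt-Rnr1 in the last, all lower. DESeq2 gave 2 for miR-7a and 5 for miR-146a in vehicle, 2 for miR-29a under LPS and 2 for LPS with miR-146a. Without the filter these were 1 and 6 in vehicle and 1 for LPS with miR-146a. For miR-29a under LPS, edgeR and sizes over nuclear protein-coding genes gave 0. Without VEH_miR-7a replicates 2, 3 and 4 (chosen after seeing the data), LPS with miR-7a gave 0, mt-Rnr2 turned to 0.053 and mt-Co1 to 0.27. In miR-7a in vehicle mt-Co3 was then 0.25 and mt-Nd6 -0.23, and for the miR-7a difference mt-Co1, mt-Ts1 and mt-Nd6 were 0.23, 0.96 and 0.10, each with the opposite sign to the fit of all libraries. With 1 lost decimal in mt-Rnr1 of VEH_scramble replicate 2 (also chosen after seeing the data), mt-Rnr1 was called for LPS in scramble without the block too, and its blocked call for miR-29a in vehicle was lost. With a posterior minimum of 0.99 it was not tested in comparisons with VEH_scramble, and it was called for LPS with miR-7a (limma adjusted p = 0.049).

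Leaving out each library in turn gave 0 to 1 for LPS in scramble (1 without VEH_scramble replicate 2), 0 to 2, 0 to 0 and 0 to 7 for the mimics in vehicle in that order, 0 to 0, 0 to 1 and 0 to 0 under LPS, 6 to 11, 0 to 0 and 0 to 2 for LPS with the mimics, and 0 to 0 for the differences. For miR-146a under LPS, the log2 fold changes of mt-Atp8, mt-Atp6 and mt-Nd5 ranged from -0.28 to 0.90, from -0.31 to 0.68 and from -0.095 to 0.64, with each lowest value without LPS_scramble replicate 2. Shares over all libraries stayed within 2.28% to 2.41%, 0.018% to 0.0201% and 0.00163% to 0.00174%.

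With the values as deposited the shares were 4.1%, 4.04e-05% and 3.49e-06%, the counts were 0 for miR-146a in vehicle, miR-29a under LPS and LPS with miR-7a, and log2 fold changes reversed for mt-Nd4l (-1.98, miR-7a in vehicle), mt-Atp6 (-0.21 for miR-29a and -1.71 for miR-146a in vehicle, 2.98 for LPS with miR-146a), mt-Co2 (0.36, miR-7a under LPS), mt-Nd2 (3.02), mt-Atp6 (2.35), mt-Nd5 (1.52), mt-Nd6 (0.75) and mt-Cytb (2.31) for LPS with miR-7a, and mt-Atp6 (1.49) and mt-Nd4l (1.94) for the miR-7a difference. The lost decimals cause this by construction. The other causes were not tested. At most 3 of 22 transfer RNAs could be tested between 2 groups.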
